A study of Mus musculus with 12 samples.

Results

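The data described here are the somatic cells of XY mouse gonads at embryonic day 12 that lacked the -KTS form of WT1, set against the somatic cells of wild-type (WT) XY gonads. WT1 is a zinc finger protein that the early gonad needs in both sexes. Its transcripts are spliced in 2 ways at the end of exon 9, and the choice adds or leaves out the residues lysine, threonine and serine (KTS) between the last zinc fingers. The -KTS form binds DNA strongly and acts as a transcription factor, while the +KTS form is better known for binding RNA. In XY gonads the supporting cells normally become Sertoli cells, which build the testis cords and signal through AMH, desert hedgehog and FGF9 to the cells around them. Among those neighbours are the precursors of Leydig cells, the steroid-producing cells of the testis.

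The XY -KTS KO libraries came from embryos homozygous for an allele that cannot make the -KTS form, so that only +KTS transcripts remained, in every tissue and from the start of development. The XY WT libraries came from embryos with both forms. All embryos were of the mixed B6CBAF1/JRj background. Each group had 2 libraries of whole fetal gonads, made with the 10x Genomics 3' chemistry. Each of the XY -KTS KO libraries pooled the gonads of several embryos, and one of them included younger embryos. The part of stage in the results below was not tested. XX -KTS KO and XX WT gonads of the same labelled age, also with 2 libraries each, served below for the comparison with the other sex. XX and XY +KTS KO libraries were not compared. They entered the choice of genes tested, the scaling of library totals and the estimate of the spread.

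A barcode was a member if it held 1000 or more genes and no more than 10% mitochondrial UMIs (unique molecular identifiers), after removal of germ cells (10 or more UMIs of Dppa5a, Pou5f1, Ddx4 and Dazl together), endothelial cells (3 or more of Cdh5 and Tie1), immune cells (3 or more of Tyrobp and Fcer1g) and blood cells (over 20% globin UMIs). The rule kept 23037 of the 33144 barcodes in the 4 libraries, namely 7424 and 5030 cells in XY WT and 5361 and 5222 cells in XY -KTS KO, of 71955 kept by the same rule in all 12 libraries. Their UMIs were summed per library, to 88361669 and 72151542 in XY WT and 78904268 and 88505943 in XY -KTS KO. Levels are given in CPM, which are UMIs scaled to a common library total. In such sums, fewer cells of a type and less RNA per cell cannot be told apart. A pair of libraries shared at most 26 barcodes.

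The alleles differ at the 3' end of exon 9 of Wt1 (ENSMUSG00000016458, chromosome 2, 105126529 to 105173616, plus strand, GRCm38). The junction of exons 9 and 10 is printed in both forms because it is the only difference in sequence between them. Capitals mark the 9 bases at positions 105170010 to 105170018 that the later splice donor keeps, and both stretches run from 105169980 to 105172252 with the intron spliced out.
Wt1 with KTS: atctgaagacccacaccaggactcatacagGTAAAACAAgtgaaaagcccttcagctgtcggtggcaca
Wt1 without KTS: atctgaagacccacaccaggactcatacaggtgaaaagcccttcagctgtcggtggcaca

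The 3' counts do not read this junction, so the loss of the -KTS form could not be checked in the libraries. Wt1 as a whole was counted at 168 and 240 CPM in XY WT and at 293 and 305 CPM in XY -KTS KO. The groups did not overlap, but the difference (log2 0.55 ± 0.18, SE) did not pass the threshold (edgeR quasi-likelihood test, adjusted p = 0.0538). DESeq2 put it past the threshold (log2 0.52, adjusted p = 0.0226), and so did the fits with all cell types kept (log2 0.72, adjusted p = 0.0481) and without XY WT replicate 2 (log2 0.84, adjusted p = 0.0194). Sry, the Y-linked gene that starts testis development, stood at 0.329 and 0.835 CPM in XY WT and at 0.726 and 0.725 CPM in XY -KTS KO, so the groups overlapped.

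The difference between the genotypes was broad. Of 18019 genes tested, 4229 (23.5%) were called at an adjusted p under 0.05, 1988 (11%) higher and 2241 (12.4%) lower in XY -KTS KO. With XY -KTS KO replicate 1, XY -KTS KO replicate 2, XY WT replicate 1 or XY WT replicate 2 left out, the count was 2436, 2065, 2469 or 2712, and it was 2450 with germ, endothelial, immune and blood cells kept. P-values measure the spread between libraries, with 2 a group. With 2 libraries against 2, lack of overlap is a description and adds no support to a call. The list counts below stand beside the 11% higher and 12.4% lower over all genes tested.

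Markers of the cells that the rule removes were still counted, and several of their sums differed between the genotypes. Perivascular, mesonephric, and adrenal and neural crest cells were not removed by the rule, and their markers are given here too. The summed level of 10 germ cell markers was 60.1 and 88.9 CPM in XY WT and 29.4 and 36.4 CPM in XY -KTS KO, and that of 10 endothelial markers was 136 and 99.1 CPM against 65.2 and 58.7 CPM. The 10 markers of blood cells summed to 433 and 1126 CPM against 247 and 144 CPM, 10 of immune cells to between 0.647 and 1.29 CPM, and 8 of perivascular cells to 84.2 and 80.1 CPM against 65.2 and 60.6 CPM. Mesonephric tubule and duct markers, 10 genes, ran the other way, from 19.6 and 32.1 CPM to 95.1 and 70.5 CPM. Adrenal and neural crest markers summed to between 17.1 and 24.9 CPM, with Cyp11b1 at 0 in all 4 libraries, and 4 Y-linked genes to between 136 and 178 CPM. Of each list's tested genes, 1 rose and 2 fell for germ cells, 0 and 2 for endothelial, 0 and 1 for immune, 0 and 0 for blood, 1 and 3 for perivascular, 1 and 0 for mesonephric and 4 and 2 for adrenal and neural crest genes. Over all genes tested, 11% rose and 12.4% fell. The mesonephric and immune calls were lost with any of the 4 libraries left out. Falls among germ cell and perivascular markers were fewer in some of these fits. Without XY -KTS KO replicate 1, XY -KTS KO replicate 2 or XY WT replicate 1, no endothelial marker was called. With the compared libraries alone, 7 germ cell, 6 endothelial and 4 blood cell markers fell and 3 mesonephric markers rose. DESeq2 put 6 endothelial and 3 blood cell markers lower, and with no filter on low counts 6 of each were lower. With all cell types kept, 6 immune markers rose. Their part in the results below was not tested.

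The Sertoli programme was low in XY -KTS KO. Of 25 genes that Sertoli cells secrete or use as enzymes, 18 fell, 1 rose and 6 were not called, with a median log2 difference of -2.77 against 0.01 over all genes tested. Dhh, the hedgehog ligand of Sertoli cells (chromosome 15, 98891152 to 98898540), stood at 70.2 and 42.8 CPM in XY WT and at 0.0778 and 0.0335 CPM in XY -KTS KO (log2 -9.99 ± 0.48, adjusted p = 4.1e-06, and -10.66 without XY -KTS KO replicate 1 or -10.67 with doublets removed). Cst9, a cystatin, went from 377 and 430 CPM to 1.74 and 1.68 CPM, and Aard, an alanine- and arginine-rich protein, from 557 and 433 CPM to 6.35 and 5.3 CPM. All 3 are among the 20 largest falls without overlap, so that neither their size nor their lack of overlap is a test. The differences of Dhh and Aard were -8.87 and -4.74 with all cell types kept.

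Other Sertoli products fell less far. Inhbb, which encodes an activin and inhibin subunit, stood at 39.8 and 59.6 CPM in XY WT and at 6.69 and 7.87 CPM in XY -KTS KO (log2 -2.77 ± 0.25, adjusted p = 0.000102). Fgf9, the ligand that sustains Sertoli differentiation, went from 37.8 and 50.7 CPM to 4.29 and 5.31 CPM (log2 -3.20 ± 0.46, adjusted p = 0.00128). The lowest XY WT library lay far above the highest XY -KTS KO library for both genes, as the plot of levels by library shows.

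**Figure D1:**
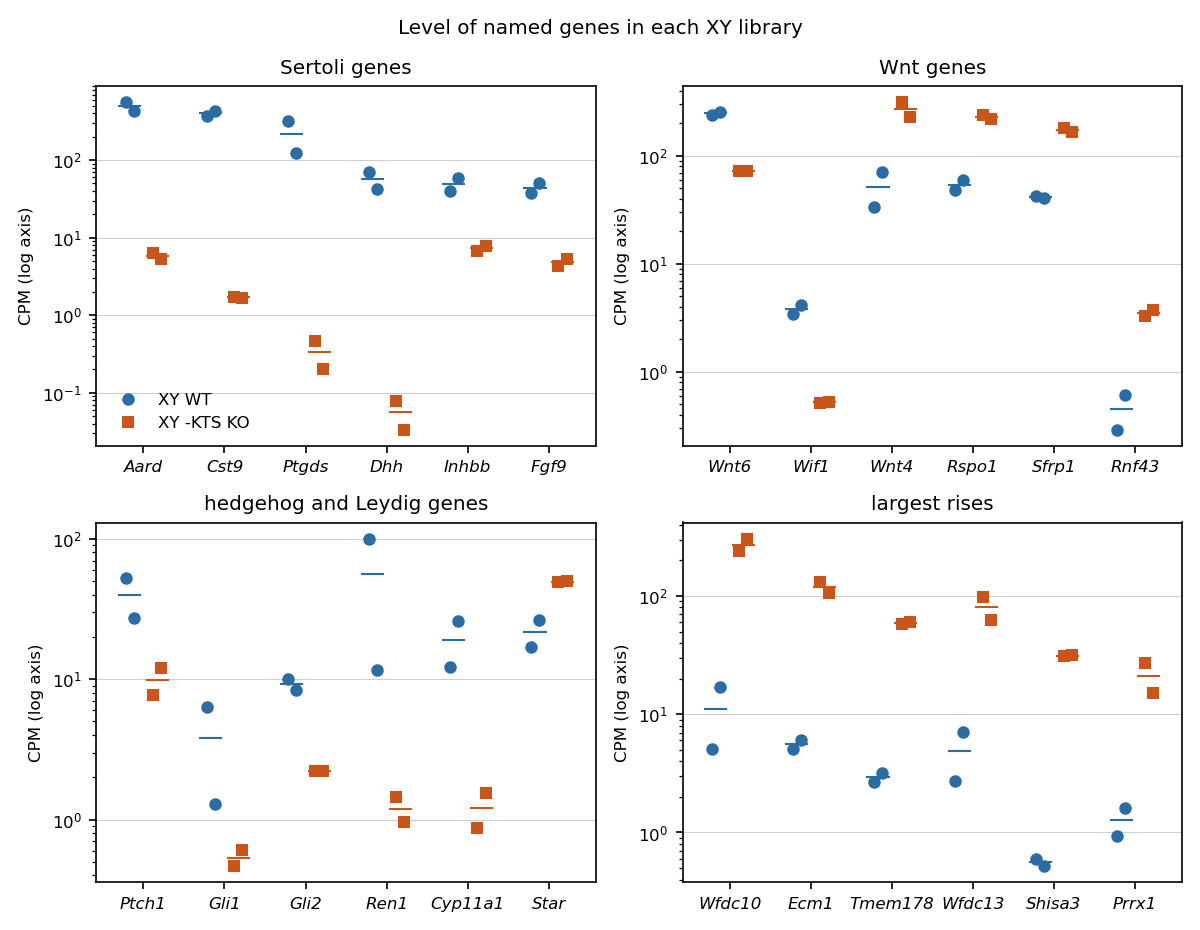
Level of 24 named genes in each XY library, in CPM on a log axis, with circles for XY WT, squares for XY -KTS KO and a line at the mean of each pair. In every panel the 2 libraries of one group lie on the same side of both libraries of the other, with the 2 XY WT libraries furthest apart for Ren1 (100 and 11.6 CPM).

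Of 13 transcription factors of Sertoli cells, 8 fell, 1 rose and 4 were not called (median log2 difference -1.74). Sox8, a partner of Sox9, stood at 5.19 and 5.57 CPM in XY WT and at 0.22 and 0.145 CPM in XY -KTS KO (log2 -4.88 ± 0.41, adjusted p = 7.85e-05, and -4.24 with all cell types kept). A pair of orphan nuclear receptors of the early gonad fell together. Nr5a1, which drives steroid and Sertoli genes, went from 42.7 and 59.3 CPM to 12.7 and 18.1 CPM (log2 -1.72 ± 0.23, adjusted p = 0.000865). Nr0b1, its repressor partner, went from 46.2 and 66.2 CPM to 14.9 and 18.8 CPM (log2 -1.74 ± 0.29, adjusted p = 0.00283). The groups did not overlap for these genes.

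The 20 largest falls among genes of at least 20 CPM held further genes without a place in those lists. Siglece, a sialic acid receptor, stood at 24.6 and 28.7 CPM in XY WT and at 0.013 and 0 CPM in XY -KTS KO. Aqp5, a water channel, stood at 121 and 81.9 CPM against 0.687 and 0.468 CPM (log2 -7.46 ± 0.46, adjusted p = 1.61e-05). Etv2, an ETS factor best known in blood vessel precursors, went from 64.9 and 30.7 CPM to 0.298 and 0.123 CPM (log2 -7.85 ± 1.52, adjusted p = 0.00563). Without XY -KTS KO replicate 2, its difference was -7.32 with an adjusted p of 0.0574, and it was -8.59 without XY -KTS KO replicate 1 and -7.21 without XY WT replicate 1. Shbg, Gatm, Ctrb1, Tmem184a and Mmd2 fell by 6.05 to 6.81 on the log2 scale. Lack of overlap was part of how these genes were chosen. Etv2 and Gatm differed by -6.18 and -5.41 with all cell types kept.

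Cells that carried Sertoli genes were counted as those with 3 or more UMIs of Sox9, Amh, Dhh, Ptgds, Aard, Mro and Cst9 together. They made up 36.4% and 45.9% of the cells in XY WT and 5.89% and 7.37% in XY -KTS KO. In XX gonads they made up 8.40% and 12.5% in WT and 5.87% and 2.15% in -KTS KO. Each cell was then thinned to 5000 UMIs, which left out 232 to 276 shallower cells per XY library. Thinned shares were 32.1% and 37.6% in XY WT and 1.25% and 1.17% in XY -KTS KO. They were 2.05% and 2.16% in XX WT and 0.318% and 0.274% in XX -KTS KO. The XY -KTS KO shares thus lay below those of XX WT. For 3 or more UMIs of the epithelial genes Upk3b, Krt7, Krt19 and Lrrn4, the shares were 8.31% and 5.17% in XY WT. In XY -KTS KO they were 9.89% and 12.7%. An exact permutation test of a share cannot pass the threshold with 2 libraries against 2, so none was run.

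These gates are ranges of a count and not cell types, and several of their genes differ between the genotypes themselves. In XY WT, 342 and 338 thinned cells had exactly 2 or 3 UMIs of the Sertoli genes, next to the threshold. In XY -KTS KO, 123 and 130 did.

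For Dhh, 17.4% and 12.7% of thinned XY WT cells had a UMI (95% Wilson intervals 16.6 to 18.3% and 11.8 to 13.7%), against 2 of 5127 and 0 of 4949 cells in XY -KTS KO. A count of 0, taken as up to 3 cells, allows a share of up to 0.0606% of thinned cells with a UMI. Without thinning, the XY -KTS KO shares were 0.0933% and 0.0574%. Endothelial cells gave 4.93% and 1.89% in XY WT, and 1.20% and 0% in XY -KTS KO, where only 83 and 58 such cells were counted, too few to set a background. Median depth before thinning was 10212.5 and 12595.5 UMIs in XY WT members, 11991 and 16124.5 in XY -KTS KO members, and 16431 to 23032.5 in endothelial cells. Intervals and limits cover counting error only.

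Genes of Wnt signalling were called in both directions, with more that rose than fell. Canonical Wnt signals, amplified by R-spondins, are the known driver of the ovarian path and antagonise SOX9 and FGF9 in the supporting cells. Of 27 Wnt ligands, modulators and targets tested, 11 rose, 5 fell and 11 were not called (median log2 difference 0.79). With XY -KTS KO replicate 1, XY -KTS KO replicate 2, XY WT replicate 1 or XY WT replicate 2 left out, 7, 6, 6 or 6 rose and 3, 3, 4 or 3 fell.

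Among the ligands, Wnt4 (chromosome 4, 137277489 to 137299726) rose from 33.3 and 70.6 CPM in XY WT to 313 and 228 CPM in XY -KTS KO (log2 2.38 ± 0.42, adjusted p = 0.00375). Rspo1, the R-spondin of the ovary (chromosome 4, 124986430 to 125009099), rose from 48.6 and 59.3 CPM to 238 and 221 CPM (log2 2.09 ± 0.32, adjusted p = 0.00164). Both levels were several times as high in each XY -KTS KO library as in either XY WT library. Wnt6, another ligand, fell from 241 and 254 CPM to 72.1 and 72.6 CPM (log2 -1.77 ± 0.20, adjusted p = 0.000361), so the ligands did not move as one.

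The shares of cells with these transcripts followed the levels. Wnt4 had a UMI in 9.72% and 17.8% of thinned XY WT cells and in 52.5% and 44.9% of XY -KTS KO cells, with 1.48% to 5.17% in endothelial cells. Rspo1 had one in 17.7% and 24.0% against 60.2% and 60.5%, with 1.20% to 5.17% in endothelial cells. The shares did not overlap between the groups and lay above those of endothelial cells in all 4 libraries. Only 83 and 58 endothelial cells were counted in XY -KTS KO, so their shares are rough.

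Among the modulators, Sfrp1, a secreted Wnt inhibitor, rose from 42.1 and 40.9 CPM to 181 and 168 CPM (log2 2.07 ± 0.30, adjusted p = 0.00125). Wif1, another secreted inhibitor, fell from 3.45 and 4.19 CPM to 0.518 and 0.524 CPM (log2 -2.87 ± 0.30, adjusted p = 0.000237). Rnf43, a feedback target that removes Wnt receptors, rose from 0.292 and 0.616 CPM to 3.32 and 3.75 CPM (log2 2.96 ± 0.35, adjusted p = 0.000469). Of the feedback ligases and receptors in the list, Rnf43 rose, while Znrf3 and Lgr5 fell. Without XY WT replicate 2, the differences of Wnt4 and Rnf43 were 3.03 and 3.60.

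Of 20 pre-granulosa genes, the early genes of ovarian supporting cells, 6 rose, 5 fell and 9 were not called (median log2 difference 0.93). With the same libraries left out in turn, 6, 5, 5 or 6 rose and 1, 2, 4 or 2 fell. With the compared libraries alone, 10 rose and 4 fell, and with no filter on low counts 8 rose and 5 fell. Those that rose were Wnt4, Rspo1, Rnf43, Axin2, Cdkn1b and Emx2, of which 4 are also in the Wnt list. Cdkn1b, the cell cycle inhibitor p27, rose from 26.8 and 33.2 CPM to 83.3 and 93.1 CPM (log2 1.55 ± 0.18, adjusted p = 0.000457). Emx2, a homeobox gene of the gonadal epithelium, rose from 59.7 and 91.5 CPM to 152 and 160 CPM (log2 1.05 ± 0.20, adjusted p = 0.005). Those that fell were Foxl2, Hsd11b2, Lgr5, Nr0b1 and Znrf3.

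Several targets of hedgehog signalling, which Dhh feeds in the testis, were lower in XY -KTS KO. Of 12 hedgehog response genes tested, 5 fell, 2 rose and 5 were not called (median log2 difference 0.01). With XY -KTS KO replicate 1, XY -KTS KO replicate 2 or XY WT replicate 1 left out, only 2 fell, and 5 fell without XY WT replicate 2. Ptch1, the receptor and a direct target (chromosome 13, 63508328 to 63573598), went from 52.6 and 27.4 CPM to 7.74 and 11.9 CPM (log2 -2.02 ± 0.37, adjusted p = 0.00415). Gli2, a transcription factor of the pathway, went from 10.1 and 8.4 CPM to 2.23 and 2.23 CPM (log2 -2.05 ± 0.20, adjusted p = 0.000159). Each XY WT library was above both XY -KTS KO libraries for these 2 genes.

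Gli1 and Hhip, the other classical targets, differed widely between the XY WT libraries. Gli1 stood at 6.36 and 1.29 CPM in XY WT and at 0.467 and 0.602 CPM in XY -KTS KO (log2 -2.83 ± 0.65, adjusted p = 0.0124). Its adjusted p was 0.0838, 0.0652 or 0.095 without XY -KTS KO replicate 1, XY -KTS KO replicate 2 or XY WT replicate 1, and its difference -2.67, -3.03 or -1.27. Without XY WT replicate 2, the differences of Gli1 and Hhip were -3.55 and -6.31. Hhip stood at 1.55 and 0.0137 CPM against 0.013 and 0.0223 CPM (log2 -5.35, adjusted p = 0.0317), and without XY WT replicate 1 the difference turned to 0.35 (adjusted p = 0.904). Without XY -KTS KO replicate 1 or 2, its adjusted p was 0.148 or 0.146. The difference of Hhip was -2.06 with all cell types kept (adjusted p = 0.145), -6.67 with doublets removed and -7.46 with thinned cells (adjusted p = 0.0615). With the replicate number as a block it was -5.01 (adjusted p = 0.0547). Gas1, a hedgehog co-receptor that the pathway represses, rose from 80.4 and 88.8 CPM to 360 and 424 CPM (log2 2.21 ± 0.24, adjusted p = 0.000301).

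Of 13 fetal Leydig and steroid genes, 4 fell, 1 rose and 8 were not called (median log2 difference -0.64). Cyp11a1, the enzyme that starts steroid synthesis from cholesterol, went from 12.2 and 26 CPM to 0.868 and 1.54 CPM (log2 -3.98 ± 0.56, adjusted p = 0.00115). Ren1, renin, a marker of fetal Leydig cells and their precursors, went from 100 and 11.6 CPM to 1.44 and 0.959 CPM (log2 -5.55 ± 0.89, adjusted p = 0.0022). Star, which carries cholesterol into mitochondria, was the one that rose, from 17 and 26.5 CPM to 49 and 50 CPM (log2 1.19 ± 0.32, adjusted p = 0.0247). Without XY WT replicate 1, the difference of Ren1 was -3.29, and without XY WT replicate 2 those of Ren1 and Cyp11a1 were -6.38 and -3.32. The adjusted p of Star was 0.0804, 0.092 or 0.154 without XY -KTS KO replicate 1, XY -KTS KO replicate 2 or XY WT replicate 1.

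Several genes of the FGF response fell, as Fgf9 did. Of 16 FGF ligands, receptors and feedback genes, 7 fell, 2 rose and 7 were not called (median log2 difference -0.46). With XY -KTS KO replicate 1, XY -KTS KO replicate 2, XY WT replicate 1 or XY WT replicate 2 left out, 5, 4, 5 or 6 fell and 1, 0, 1 or 0 rose. Etv4, an ETS factor that FGF signals induce (chromosome 11, 101769742 to 101785371), stood at 22.9 and 20.7 CPM in XY WT and at 0.622 and 0.703 CPM in XY -KTS KO (log2 -5.04 ± 0.64, adjusted p = 0.000672). Spry4, a feedback inhibitor, stood at 15.1 and 13.8 CPM against 1.37 and 1.68 CPM (log2 -3.24 ± 0.59, adjusted p = 0.00411). Both differences were smaller with all cell types kept, at -1.26 for Etv4 and -1.98 for Spry4. The XY WT libraries were close to each other for both genes and far from XY -KTS KO.

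**Figure D2:**
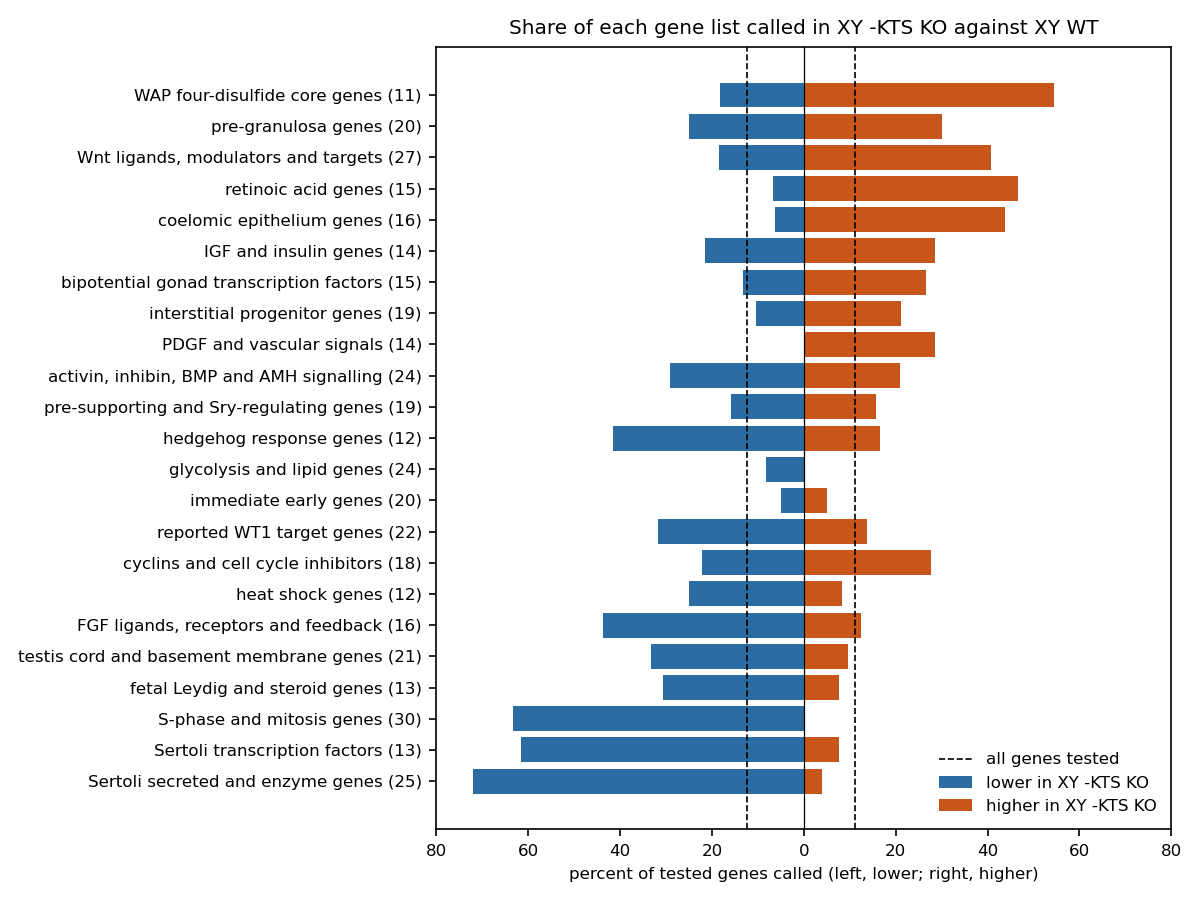
Percent of the tested genes of each pathway list (marker lists are not drawn) called lower (left) and higher (right) in XY -KTS KO than in XY WT, with the number of tested genes in brackets, lists sorted by their median log2 difference and dashed lines at the percent over all genes tested (12.4 and 11). Sertoli lists and S-phase and mitosis genes reach furthest to the left among these pathway lists, and WAP, retinoic acid, coelomic epithelium and Wnt genes furthest to the right.

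Genes of the dividing cell were lower in XY -KTS KO. Of 30 S-phase and mitosis genes, 19 fell and 0 rose, with a median log2 difference of -0.70. The count was 13, 9, 10 or 18 without XY -KTS KO replicate 1, XY -KTS KO replicate 2, XY WT replicate 1 or XY WT replicate 2, and 5 with all cell types kept. Top2a, the topoisomerase of dividing cells, stood at 212 and 203 CPM in XY WT and at 118 and 116 CPM in XY -KTS KO (log2 -0.82 ± 0.11, adjusted p = 0.00105). Ung, a glycosylase that removes uracil from DNA (chromosome 5, 114130386 to 114139323), stood at 42 and 45.3 CPM against 13.3 and 12.9 CPM (log2 -1.74 ± 0.16, adjusted p = 0.000102). With all cell types kept, its difference was -0.97 (adjusted p = 0.0708).

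Regulators of entry into the cycle were called in both directions. Of 18 cyclins and cell cycle inhibitors, 5 rose, Cdkn1b among them, and 4 fell, beside 11% higher and 12.4% lower over all genes tested. With the 4 libraries left out in the same order, 2, 2, 2 or 3 rose and 3, 2, 2 or 4 fell. Ccnd1, cyclin D1, went from 90.5 and 67.2 CPM to 19.1 and 14.1 CPM (log2 -2.25 ± 0.28, adjusted p = 0.000599). Ccnd2, cyclin D2, went from 122 and 150 CPM to 35.6 and 36.6 CPM (log2 -1.92 ± 0.24, adjusted p = 0.00063). The D cyclins and p27 thus moved in opposite directions.

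Several basement membrane components were lower as well. Of 21 genes of testis cords and their basement membrane, 7 fell, 2 rose and 12 were not called (median log2 difference -0.56). With all cell types kept, 6 fell and 1 rose. The number that rose was also lower in some fits with a library left out. The paired type IV collagen genes Col4a1 and Col4a2 lie head to head on chromosome 8 (11198423 to 11312826 and 11312805 to 11449287) and overlap at their starts. Col4a1 went from 125 and 100.5 CPM to 23 and 28.8 CPM (log2 -2.12 ± 0.28, adjusted p = 0.000769), and Col4a2 from 59.3 and 50.4 CPM to 12.1 and 16.4 CPM (log2 -1.94 ± 0.25, adjusted p = 0.000641). Nid1, which links collagen IV to laminin, went from 25.9 and 24 CPM to 5.17 and 5.86 CPM (log2 -2.18 ± 0.18, adjusted p = 7.45e-05). Each XY WT library lay above both XY -KTS KO libraries for these 3 genes.

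Other matrix genes parted from them. Col18a1, the collagen that gives endostatin, fell from 204 and 177 CPM to 10.1 and 13.9 CPM (log2 -3.99 ± 0.36, adjusted p = 0.000102, and -2.84 with all cell types kept). Nid2, the paralog of Nid1, was higher in XY -KTS KO (5.44 and 6.72 CPM against 14.4 and 12.1 CPM, log2 1.13 ± 0.18, adjusted p = 0.00191), but its difference was -0.18 with all cell types kept. Col1a1, the fibrillar collagen of connective tissue, rose from 11.3 and 11.6 CPM to 94.2 and 203 CPM (log2 3.70 ± 0.51, adjusted p = 0.000991, and 3.04 without XY -KTS KO replicate 2).

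Among retinoic acid genes, more rose than fell. Retinoic acid has been linked to meiosis in the ovary and is degraded in the testis by CYP26B1. Of 15 genes, 7 rose, 1 fell and 7 were not called (median log2 difference 0.77), and 5, 6, 6 or 3 rose without XY -KTS KO replicate 1, XY -KTS KO replicate 2, XY WT replicate 1 or XY WT replicate 2, where 1, 2, 1 or 1 fell. Cyp26b1 fell from 39 and 57 CPM to 5.96 and 6.93 CPM (log2 -2.90 ± 0.35, adjusted p = 0.000522). Rarb, a receptor that retinoic acid induces (chromosome 14, 16430839 to 16819156), rose from 0.45 and 0.643 CPM to 6.92 and 8.34 CPM (log2 3.80 ± 0.73, adjusted p = 0.00531). Aldh1a2, the enzyme that makes retinoic acid, rose from 66.7 and 56.9 CPM to 107 and 103 CPM (log2 0.77 ± 0.12, adjusted p = 0.0023). In these sums over all members, the degrading enzyme was lower, and the synthesising enzyme and the receptor were higher. Cyp26b1 differed by -0.69 (adjusted p = 0.189) once every cell with a UMI of the 7 Sertoli genes was left out. With cells of 3 or more such UMIs left out, its call was lost under some settings. One was the compared libraries alone (log2 -1.14, adjusted p = 0.0516).

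The WAP four-disulfide core genes, small secreted proteins of which many lie in 1 cluster on chromosome 2, held some of the largest rises. Of 19 genes, 11 passed the filter on low counts, and of these 6 rose, 2 fell and 3 were not called (median log2 difference 2.77), with 5 that rose when any 1 of the 4 libraries was left out. With no filter on low counts, 17 genes were tested, 6 rose and 2 fell, and the median was 0.72. With all cell types kept, 14 were tested and the median was 0.67. The median of 2.77 thus holds only for the genes that passed the filter, and not for the family. All 6 that rose, Wfdc2, Wfdc8, Wfdc6b, Wfdc9, Wfdc10 and Wfdc13, lie in that cluster between 164562413 and 164687706. Wfdc10 rose from 5.1 and 17.1 CPM to 238 and 304 CPM (log2 4.61 ± 0.72, adjusted p = 0.00187), and Wfdc13 from 2.73 and 7.01 CPM to 97.2 and 62.6 CPM (log2 4.04 ± 0.54, adjusted p = 0.000865). Without XY WT replicate 1 or 2, the difference of Wfdc10 was 3.99 or 5.74, and without XY WT replicate 2 that of Wfdc13 was 4.88. Wfdc10 had a UMI in 1.66% and 4.27% of thinned XY WT cells and in 31.8% and 33.7% of XY -KTS KO cells, with 0% to 4.82% in endothelial cells. The shares were above those of endothelial cells of the same library in all 4 libraries. Such cells were few, with a UMI in 0 of 203 and 3 of 159 in XY WT and in 4 of 83 and 1 of 58 in XY -KTS KO. They are too few to set a background for the low XY WT shares. Wfdc2 is also one of the mesonephric markers given above.

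The 2 that fell lie elsewhere. Wfdc1, on chromosome 8, went from 3.06 and 2.2 CPM to 0.0648 and 0.0223 CPM (log2 -5.92 ± 0.69, adjusted p = 0.000415, and -6.80 or -5.32 without XY -KTS KO replicate 1 or 2). Wfdc18, on chromosome 11, had 457 and 338 UMIs in XY WT and 0 in both XY -KTS KO libraries, at least 285-fold lower against a floor of 3 UMIs over the pair. DESeq2 gave it an adjusted p of 0.0968, which misses the threshold. Wfdc9 and Wfdc10 overlap on opposite strands, and so do Wfdc8 and Wfdc6b, so their counts depend on the strand kept by the 3' chemistry.

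Among the other genes with the largest rises, Shisa3, an inhibitor of Wnt and FGF receptor maturation, stood at 0.597 and 0.52 CPM in XY WT and at 30.8 and 31.5 CPM in XY -KTS KO. Prrx1, a homeobox gene of mesenchyme, rose from 0.937 and 1.62 CPM to 27.1 and 15.2 CPM (log2 4.05 ± 0.70, adjusted p = 0.00319). Tmem178, a membrane protein, rose from 2.68 and 3.18 CPM to 57.6 and 60.2 CPM (log2 4.33 ± 0.20, adjusted p = 3.88e-06), and Nrn1, neuritin, from 5.14 and 8.57 CPM to 91.4 and 96.2 CPM (log2 3.78 ± 0.47, adjusted p = 0.000556). Vsnl1, a calcium sensor, and Capn6, a calpain relative, rose by 3.80 and 3.04 on the log2 scale. Osr1, a transcription factor of the early urogenital ridge, rose from 0.877 and 0.643 CPM to 17.5 and 14.3 CPM (log2 4.38 ± 0.59, adjusted p = 0.000918).

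Among genes of the coelomic epithelium, the surface layer from which supporting cells arise, more rose than fell. Of 16 genes, 7 rose, 1 fell and 8 were not called (median log2 difference 0.70), and 6 or 7 rose with any 1 of the 4 libraries left out. Upk3b, a uroplakin of mesothelium, rose from 62.5 and 39.6 CPM to 116 and 129.9 CPM (log2 1.27 ± 0.24, adjusted p = 0.00511), and Krt18, a keratin, from 46 and 31.5 CPM to 109 and 106 CPM (log2 1.48 ± 0.27, adjusted p = 0.00421). Of 19 interstitial progenitor genes, 4 rose, 2 fell and 13 were not called (median 0.36). These are 21.1% and 10.5%, beside 11% higher and 12.4% lower over all genes tested. Nr2f1, a nuclear receptor of the interstitium, rose from 12 and 11.6 CPM to 49.4 and 58.1 CPM (log2 2.19 ± 0.33, adjusted p = 0.00162). With XY -KTS KO replicate 1, XY -KTS KO replicate 2, XY WT replicate 1 or XY WT replicate 2 left out, 2, 3, 2 or 2 of these genes rose and 2, 1, 1 or 2 fell.

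Growth factor genes moved in both directions. Of 14 IGF and insulin genes, 4 rose and 3 fell (median log2 difference 0.41), beside 11% higher and 12.4% lower over all genes tested. Both counts were lower in every fit with a library left out. Igf1, the ligand, rose from 16 and 24.7 CPM to 73.4 and 75.7 CPM (log2 1.87 ± 0.21, adjusted p = 0.000353), and Igfbp5, a binding protein, from 122 and 142 CPM to 406 and 468 CPM (log2 1.73 ± 0.20, adjusted p = 0.000415). Igfbp7, another binding protein, fell from 121 and 28.4 CPM to 2.37 and 1.07 CPM (log2 -5.45 ± 0.72, adjusted p = 0.000825, and -6.12, -4.06 or -6.13 without XY -KTS KO replicate 1, XY WT replicate 1 or XY WT replicate 2). Of 24 genes of activin, inhibin, BMP and AMH signalling, 5 rose and 7 fell (median 0.26), and 4, 2, 3 or 2 rose and 2, 3, 4 or 3 fell with the libraries left out in the order given above. Id3, a target of BMP signals, rose from 241 and 188 CPM to 853 and 611 CPM (log2 1.77 ± 0.29, adjusted p = 0.0025).

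The other lists are given by their counts, beside 11% higher and 12.4% lower over all genes tested. Of 22 genes described as WT1 targets, 3 rose and 7 fell (median -0.29), of 15 transcription factors of the bipotential gonad tested 4 rose and 2 fell (median 0.36), and of 19 pre-supporting and Sry-regulating genes 3 rose and 3 fell (median 0.18). Of 14 PDGF and vascular genes, 4 rose and 0 fell (median 0.28). Heat shock genes (12), immediate early genes (20) and glycolysis and lipid genes (24) held 1 and 3, 1 and 1, and 0 and 2 genes that rose and fell. DESeq2 put 7 heat shock genes and 2 immediate early genes lower, and with the compared libraries alone 1 and 4 of them were lower. Counts changed with a library left out for the WT1 targets, the PDGF and vascular genes, the bipotential factors and the pre-supporting and Sry-regulating genes. The same held for the heat shock, immediate early, and glycolysis and lipid genes. Such a fit leaves a single library in a group, and whether that or particular libraries moved the counts was not tested.

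Next, cells with 3 or more UMIs of the 7 Sertoli genes (Sertoli-gene cells) were left out of every library, and the test was repeated on the remaining cells. Of these, 32.6% and 37.8% in XY WT and 21.6% and 23.5% in XY -KTS KO still held 1 or 2 such UMIs. The genotypes lost unequal shares of cells in this step, 36.4% and 45.9% against 5.89% and 7.37%. Of 17557 genes, 3632 (20.7%) were called, 1840 (10.5%) higher and 1792 (10.2%) lower. The list counts in the remaining cells stand beside these shares. Of 1972 genes higher with all cells and tested in both, 1365 were also higher here (69.2% of the former and 74.2% of the latter list). Of 2134 lower ones, 1305 were also lower (61.2% and 73.0%). The tests share their cells, so the overlap is a description. The total was 1987, 1701, 1754 or 2478 without XY -KTS KO replicate 1, XY -KTS KO replicate 2, XY WT replicate 1 or XY WT replicate 2.

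Of 19 Sertoli secreted and enzyme genes that did not define the Sertoli-gene cells, 6 were lower and 3 higher in the remaining cells (median log2 difference -0.68). With all cell types kept, 18 of them were tested, and 3 were lower and 2 higher. When every cell with a UMI of the 7 genes was left out, 18 were tested as well. The counts were 3, 2, 5 or 5 lower and 2, 2, 2 or 2 higher without XY -KTS KO replicate 1, XY -KTS KO replicate 2, XY WT replicate 1 or XY WT replicate 2, and 5 lower and 3 higher when every cell with a UMI of the 7 genes was left out. Of 12 Sertoli transcription factors other than Sox9, 4 were lower and 0 higher (median -0.62), and 3, 4, 4 or 3 were lower with the libraries left out in that order. For some genes that did not define the Sertoli-gene cells, the difference was not called once those cells were left out. Col9a3, a cartilage-type collagen made by Sertoli cells, stood at 131 and 55.4 CPM in XY WT with all cells and at 1.94 and 0.853 CPM in the remaining cells, next to 0.97 and 0.841 CPM in XY -KTS KO (log2 -0.63, adjusted p = 0.321). Fgf9 stood at 2.7 and 1.42 CPM in XY WT and at 2.94 and 4.81 CPM in XY -KTS KO (log2 0.90, adjusted p = 0.201). Sox8 was at 0.206 and 0.228 CPM against 0.211 and 0.111 CPM (log2 -0.43, adjusted p = 0.598). Wif1 was at 0.515 and 0.54 CPM against 0.45 and 0.507 CPM (log2 -0.14, adjusted p = 0.792).

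Other genes still differed by a similar amount. Aqp5 stood at 102 and 59.1 CPM in the remaining XY WT cells and at 0.661 and 0.445 CPM in XY -KTS KO (log2 -7.19, adjusted p = 4.46e-05). Etv4 stood at 27.3 and 28.9 CPM against 0.619 and 0.742 CPM (log2 -5.36, adjusted p = 0.000642), and Spry4 at 13.3 and 12.7 CPM against 1.18 and 1.46 CPM (log2 -3.30, adjusted p = 0.00397). These were -1.86 and -2.01 with all cell types kept. Igfbp7 stood at 154 and 37.1 CPM against 2.32 and 1.11 CPM (log2 -5.81, and -6.44, -4.44 or -6.54 without XY -KTS KO replicate 1, XY WT replicate 1 or XY WT replicate 2), and Ren1 at 108 and 8.02 CPM against 1.31 and 0.866 CPM (log2 -5.75, and -2.89 or -6.69 without XY WT replicate 1 or 2). Cyp11a1 stood at 4.78 and 12.4 CPM against 0.408 and 0.866 CPM (log2 -3.72, adjusted p = 0.00433, and -4.41 or -2.93 without XY -KTS KO replicate 2 or XY WT replicate 2).

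Among the hedgehog response genes, Gli2 stood at 14 and 12.2 CPM in XY WT and at 2.31 and 2.31 CPM in XY -KTS KO (log2 -2.50, adjusted p = 0.000122). Of the 12 hedgehog response genes, 3 rose and 5 fell, and 2, 2, 2 or 3 rose and 2, 2, 2 or 5 fell with XY -KTS KO replicate 1, XY -KTS KO replicate 2, XY WT replicate 1 or XY WT replicate 2 left out. Ptch1 stood at 50.7 and 13.7 CPM against 7.21 and 11.7 CPM (log2 -1.77, adjusted p = 0.0307), a call that was lost without XY -KTS KO replicate 1 (adjusted p = 0.166), XY -KTS KO replicate 2 (adjusted p = 0.0729) or XY WT replicate 1, where the difference was -0.53 (adjusted p = 0.326). Without XY WT replicate 2 it was -2.47. The call of Ptch1 was also lost with the replicate number as a block (log2 -1.68, adjusted p = 0.0513). With the compared libraries alone it was lost too (log2 -1.79, adjusted p = 0.0834). Gli1 stood at 8.87 and 2.28 CPM against 0.506 and 0.643 CPM (log2 -3.28, adjusted p = 0.00441), and was called with each of the 4 libraries left out, at -1.98 without XY WT replicate 1.

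**Figure D3:**
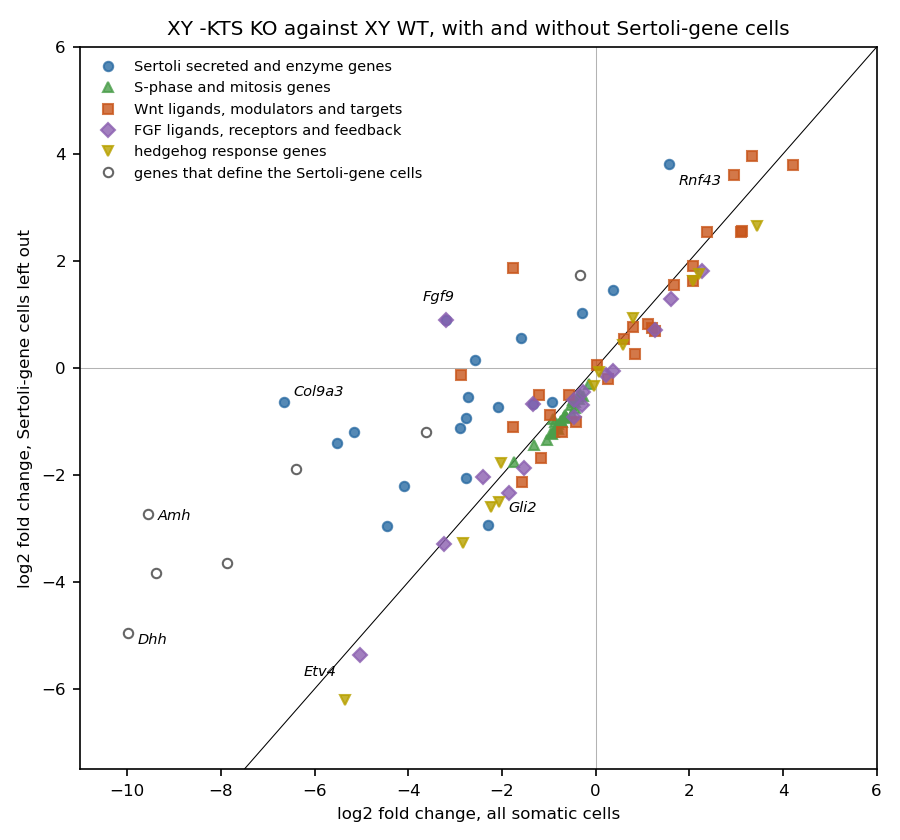
Log2 fold change of list genes in XY -KTS KO against XY WT with all somatic cells (horizontal) and with the Sertoli-gene cells left out (vertical), by list, with open circles for the genes that define those cells and a line where both values are equal. Sertoli genes such as Col9a3 (-6.65 and -0.63) lie well above the line, while Etv4 (-5.04 and -5.36) and Gli2 (-2.05 and -2.50) lie close to it.

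Division genes were lower without the Sertoli-gene cells too. Of the 30 S-phase and mitosis genes, 29 fell and 0 rose (median log2 difference -0.94 against 0.03 over all genes tested), and 22, 20, 21 or 26 fell without XY -KTS KO replicate 1, XY -KTS KO replicate 2, XY WT replicate 1 or XY WT replicate 2. Top2a stood at 256 and 276 CPM in XY WT and at 123 in both XY -KTS KO libraries (log2 -1.12, adjusted p = 0.000827). Ung stood at 42.7 and 46.7 CPM against 13.4 and 13.2 CPM (log2 -1.75, adjusted p = 0.000224), and Ccnd1 and Ccnd2 fell by 2.26 and 2.00 on the log2 scale. Whether the call counts of the 2 fits differ was not tested.

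Beside these counts, 7 of 10 endothelial markers tested were lower in the remaining cells, and 1, 1, 1 or 5 were when the libraries were left out in the same order. Of the other marker lists, 1 rose and 1 fell for germ cells, 0 and 1 for immune, 0 and 0 for blood, 1 and 2 for perivascular, 1 and 0 for mesonephric and 3 and 1 for adrenal and neural crest genes. Their part in the result was not tested.

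Of the 27 Wnt genes, 7 rose, 4 fell and 16 were not called in the remaining cells, beside 10.5% higher and 10.2% lower over all genes tested. Left out in the order given above, the 4 libraries gave 5, 6, 5 or 6 that rose and 1, 1, 2 or 1 that fell. Wnt4 stood at 21 and 64.4 CPM in XY WT and at 290 and 208 CPM in XY -KTS KO (log2 2.54, adjusted p = 0.00662), and Rspo1 at 56.9 and 65.1 CPM against 236 and 224 CPM (log2 1.91, adjusted p = 0.00139). Without XY WT replicate 1 or 2, the difference of Wnt4 was 1.95 or 3.52. Rnf43 rose by 3.61 and Sfrp1 by 1.63 on the log2 scale. Of the 21 testis cord and basement membrane genes, 3 rose and 7 fell, and 2, 1, 1 or 2 rose and 4, 5, 5 or 8 fell with the libraries left out in that order. Col4a1 stood at 144 and 121 CPM against 22.3 and 28.3 CPM (log2 -2.39, adjusted p = 0.000574, and -1.74 with all cell types kept) and Nid1 at 32.9 and 31.9 CPM against 5.24 and 5.89 CPM (log2 -2.54, adjusted p = 6.07e-05). Wt1 stood at 134 and 191 CPM against 286 and 303 CPM (log2 0.86, adjusted p = 0.00757), with an adjusted p of 0.052 without XY -KTS KO replicate 2 (log2 0.78) and 0.0528 without XY WT replicate 1 (log2 0.63).

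The difference between the sexes was then compared in both genotypes, over autosomal genes. In WT, 2298 of 17382 genes (13.2%) differed between XY and XX somatic cells, 1185 (6.82%) higher and 1113 (6.4%) lower in XY. In -KTS KO, edgeR called 0 (0%), with 793 genes (4.56%) at an unadjusted p under 0.05 against 4868 (28.0%) in WT. DESeq2 called 12 in -KTS KO, C1qtnf12, Cidea, Gm10503, Gmds, Hnrnpa0, Hopx, Map3k21, Ndufa4l2, Osbp, Purb, Rnase1 and Spp1, and 2993 in WT. The edgeR count in WT was 801, 789, 723 or 1913 without XX WT replicate 1, XX WT replicate 2, XY WT replicate 1 or XY WT replicate 2, and that in -KTS KO was 2, 0, 0 or 2 without XX -KTS KO replicate 1, XX -KTS KO replicate 2, XY -KTS KO replicate 1 or XY -KTS KO replicate 2.

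Among 5436 autosomal genes over 20 CPM on average, 267 (4.91%) differed by more than 1 on the log2 scale between the sexes in WT and 23 (0.423%) in -KTS KO. Spp1, osteopontin, stood at 164 and 130.5 CPM in XY -KTS KO and at 52.7 and 48.2 CPM in XX -KTS KO (log2 1.54 against 4.11 in WT), and edgeR gave it an adjusted p of 0.437. The sexes thus lay closer together in -KTS KO than in WT, though an adjusted p that misses the threshold does not show that they were alike.

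**Figure D4:**
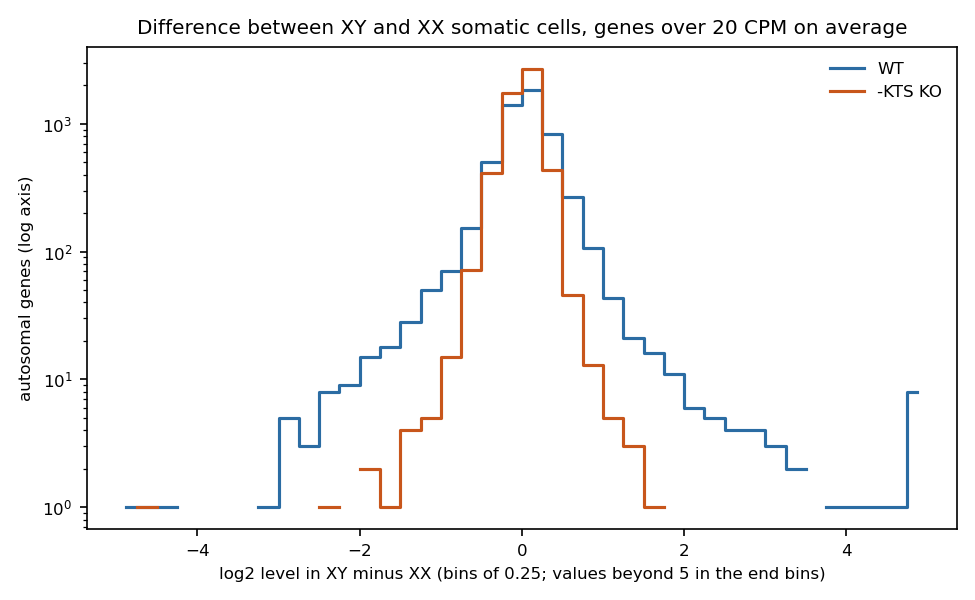
Number of autosomal genes over 20 CPM on average (log axis) by their log2 difference between XY and XX somatic cells, for WT and -KTS KO, in bins of 0.25 with values beyond 5 placed in the end bins. The WT curve has wide flanks, with 267 genes beyond 1, and the -KTS KO curve is narrow, with 23.

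Whether the genotype difference was unlike in XY and XX was tested as an interaction of genotype and sex. The same contrast is the sex difference in -KTS KO minus that in WT. It is thus not independent of the comparison of the sexes above. Of 18019 genes, 552 (3.06%) were called, 233 (1.29%) with a higher and 319 (1.77%) with a lower change in XY. Leaving out a library leaves a single one in its group, and whether that or particular libraries moved the count was not tested. The count was not stable under this change. It was 205, 118, 79 or 116 without XX -KTS KO replicate 1, XX -KTS KO replicate 2, XX WT replicate 1 or XX WT replicate 2, and 112, 109, 167 or 677 without XY -KTS KO replicate 1, XY -KTS KO replicate 2, XY WT replicate 1 or XY WT replicate 2.

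Among the genes with a lower change in XY were the Sertoli genes Tesc and Aard. Tesc, a calcium-binding protein of the early testis, stood at 305 and 193 CPM in XY WT and at 6.82 and 4.09 CPM in XY -KTS KO, but at 4.88 and 5.54 CPM in XX WT and 4.86 and 3.64 CPM in XX -KTS KO (interaction -5.22 on the log2 scale, adjusted p = 0.00233). Aard stood at 24 and 27 CPM in XX WT and at 3.69 and 3.84 CPM in XX -KTS KO, so that it was lower in -KTS KO in both sexes, and more so in XY (interaction -3.65, adjusted p = 0.00167). The calls for both genes held with each of the 8 libraries left out.

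Among the genes with a higher change in XY, Cdkn1b stood at 124 and 132 CPM in XX WT and at 78.8 and 75.5 CPM in XX -KTS KO, while it rose in XY (interaction 2.29, adjusted p = 0.00427). Its level in -KTS KO lay between those of XY WT and XX WT in both sexes. Vsnl1 stood at 16.3 and 13.8 CPM in XX WT and at 24.4 and 20.7 CPM in XX -KTS KO (interaction 3.22, adjusted p = 0.00167). Both calls held with each library left out.

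Wnt4 stood at 403 and 427 CPM in XX WT and at 435 and 205 CPM in XX -KTS KO, so that the XX groups overlapped (interaction 2.76, adjusted p = 0.0363, and 3.40 without XX -KTS KO replicate 1 or without XY WT replicate 2). Its adjusted p was 0.119, 0.107, 0.115, 0.126, 0.0774 or 0.112 without XX -KTS KO replicate 2, XX WT replicate 1, XX WT replicate 2, XY -KTS KO replicate 1, XY -KTS KO replicate 2 or XY WT replicate 1. In XY -KTS KO the gene did not reach the XX WT level in either library (313 and 228 CPM).

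**Figure D5:**
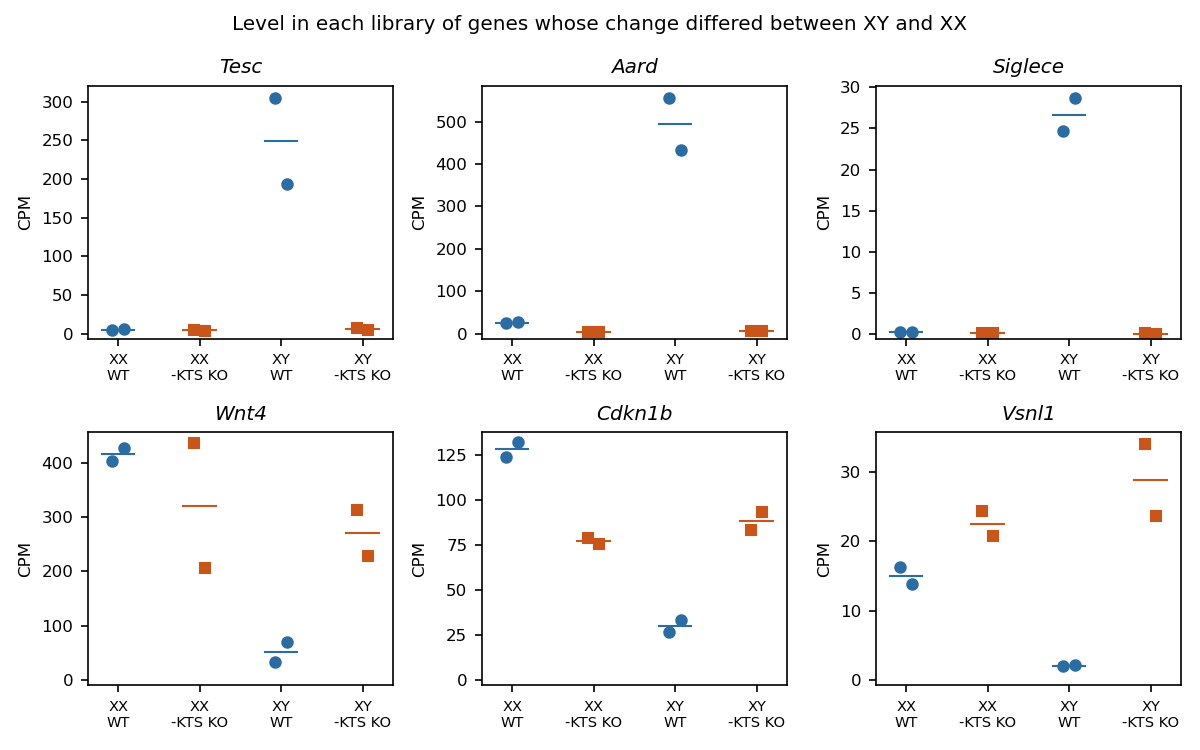
Level in CPM of 6 genes whose change differed between the sexes, in each XX and XY library of WT (circles) and -KTS KO (squares), with a line at the mean of each pair. Tesc, Aard and Siglece are highest in XY WT, and Wnt4, Cdkn1b and Vsnl1 are lowest there.

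Promoter sequence was looked at for the genes with the largest changes, since the -KTS form binds GC-rich DNA. The motif GCGNGGGNG, the core of sites of the EGR and WT1 zinc fingers, was searched on both strands in the 250 bases before the start of each gene (RefSeq, GRCm38.p6). It was found for 2 of the 14 largest falls with an entry (14.3%, Aqp5 and Mmd2) and for 2 of the 16 largest rises (12.5%, Capn6 and Tmem178). Of 13187 tested genes with an entry, 19.9% had it, as did 22.9% of all genes called lower and 22.3% of those called higher. The share among the largest changes was thus not above that of all tested genes, and a match is a description and not a site of binding. One promoter of each direction is printed, with the matches in capitals.
Aqp5, chr15:99590778-99591027, plus strand, with 1 match: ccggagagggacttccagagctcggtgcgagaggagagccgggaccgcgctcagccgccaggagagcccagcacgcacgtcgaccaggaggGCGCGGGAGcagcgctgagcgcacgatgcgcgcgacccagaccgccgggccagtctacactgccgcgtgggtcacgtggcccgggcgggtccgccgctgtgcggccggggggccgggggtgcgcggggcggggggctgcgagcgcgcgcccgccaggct
Tmem178, chr17:80944382-80944631, plus strand, with 2 matches: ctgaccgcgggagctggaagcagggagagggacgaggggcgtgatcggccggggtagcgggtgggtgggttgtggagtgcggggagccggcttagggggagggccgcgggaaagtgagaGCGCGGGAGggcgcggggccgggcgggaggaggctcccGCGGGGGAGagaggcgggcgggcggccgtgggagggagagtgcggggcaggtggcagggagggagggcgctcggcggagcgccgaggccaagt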

How the data were processed

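Whole-gonad single-cell RNA was measured in 12 libraries, 2 for each of XX and XY WT, -KTS KO and +KTS KO, at embryonic day 12. The deposited values are raw UMI counts per gene and barcode, which the authors made with Cell Ranger 6.0 on mm10, per the submitters' processing notes. Coordinates are from GENCODE M21 (GRCm38), which matched 32235 of 32285 features. UMI counts of the member cells were summed per library and tested with edgeR 4.0.16 (R 4.3.3, TMM, filterByExpr, quasi-likelihood F-test, 1 fit over 12 libraries and 6 groups, Benjamini-Hochberg threshold 0.05). DESeq2 1.42.0 served as an alternative. CPM use TMM-scaled library sizes. Log2 differences are edgeR estimates with their standard errors. Shares came from cells thinned to 5000 UMIs (Python 3.11.15, numpy 2.4.6, pandas 2.3.3, scipy 1.17.1). Doublets were kept. As an alternative, the top 0.8% per 1000 barcodes by Scrublet score (scanpy 1.11.5) were removed. No cell clustering was used. The sources do not say whether the libraries of a group came from separate litters.

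Named genes were those of the gene lists, Wt1, and the 20 largest rises and falls at 20 CPM or more without overlap between groups (10 in each direction for the other comparisons). Where DESeq2 called 12 genes, they are named by that count. The members and lists were chosen with earlier results of these data known. The edgeR step was also run on simulated counts, which is not used as support for any result here. Other alternatives were other size factors, no filter, the compared libraries alone, the replicate number as a block, all cell types kept, thinned cells, another threshold for Sertoli-gene cells, and each library left out. Counts of the lists under these settings, and of the Sertoli lists without the 7 genes that define Sertoli-gene cells, were added after seeing the data. Results that need items withheld from this text are not reported here.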

Additional observations from a re-analysis of the deposited data

Results flagged for a closer look

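The genotype difference was unlike in XY and XX somatic cells for 552 genes by the interaction test (edgeR, adjusted p under 0.05). The 24 genes listed here were among them. Genes named only for a gate or for the sex comparison are not listed, though Amh and C1qtnf12 were also called. The change was lower in XY for Siglece (-9.69 on the log2 scale), Col9a3 (-7.21), Tesc (-5.22), Mmd2 (-4.86), Ctrb1 (-4.41), Fgf9 (-3.92), Sox8 (-3.78), Aard (-3.65), Gatm (-3.23), Tmem184a (-2.61) and Sox13 (-1.42). It was also lower for Etv4 (-3.69), Col18a1 (-2.89), Gli2 (-1.62), Nid1 (-1.15) and Top2a (-0.84).

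The change was higher in XY for Nrn1 (3.94), Vsnl1 (3.22), Rnf43 (2.87), Wnt4 (2.76), Cdkn1b (2.29), Igf1 (1.76), Tmem178 (1.69) and Emx2 (1.48). Of these 24 genes, 5 kept their call with each of the 8 libraries left out: Aard, Cdkn1b, Siglece, Tesc and Vsnl1. Under the settings that leave out no library, 10 of the 24 lost the call at least once. Siglece and Mmd2 lost it with cells thinned to 5000 UMIs (adjusted p = 0.982 and 0.181), Ctrb1 and Gli2 with all cell types kept (0.0581 and 0.0909), and Top2a with library totals as size factors (0.0636). With the replicate number as a block, Sox13 (0.0597), Gatm (0.0575), Wnt4 (0.0523), Etv4 (0.0648) and Nid1 (0.0614) lost it. Several lost it under more than one setting. With all cell types kept, so did Nid1 (0.312), Top2a (0.165), Etv4 (0.147), Sox13 (0.141) and Wnt4 (0.0766). Library totals also lost Nid1 (0.0967), Sox13 (0.0907), Etv4 (0.0557) and Gatm (0.0544), and thinned cells lost Sox13 and Etv4 (both 0.0699).

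Several of these values moved by over 1.5 times with 1 library left out. Siglece, with 0.013 and 0 CPM in XY -KTS KO, was at -12.09 or -8.74 without XY -KTS KO replicate 1 or 2, and at -7.21 with all cell types kept and -4.73 with thinned cells. Without XX -KTS KO replicate 1 or 2, Ctrb1 was at -1.97 or -5.18, Gatm at -3.86 or -2.23 and Etv4 at -4.30 or -2.71. Without XX WT replicate 1 or 2, Nrn1 was at 2.96 or 4.53. Col9a3 was at -6.47 without XY WT replicate 1, and Rnf43 at 3.51 and Wnt4 at 3.40 without XY WT replicate 2. With all cell types kept, Etv4, Gatm and Col18a1 were at -1.50, -2.52 and -2.02, and with thinned cells Etv4 and Sox8 at -2.67 and -4.42.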

How the results depend on the processing

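With 1 library left out, the number of genes called lay between 2065 and 2712 in XY -KTS KO against XY WT, 1701 and 2478 without Sertoli-gene cells, 79 and 677 for the interaction, 0 and 2 for XY against XX in -KTS KO, and 723 and 1913 for XY against XX in WT. With all cell types kept, the numbers were 2450 in XY -KTS KO against XY WT, 178 for the interaction, 1 for XY against XX in -KTS KO and 1207 in WT. The interaction had 1404 calls with DESeq2, 930 with no filter on low counts and 841 with the compared libraries alone, and XY against XX in -KTS KO had 12 with DESeq2 and 5 with no filter. With all cell types kept, other cells enter the sums, and with a library left out fewer samples do. The cause of the other shifts was not tested.

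Of 75 named genes in XY -KTS KO against XY WT, 69 kept their call and direction with every library left out, and 69 under the other settings. Many of these genes were named for the size of their change and lack of overlap, or come from lists chosen with earlier results known. Their stability was thus partly fixed by the choice and does not describe all genes. Over all genes, the number of calls fell with each library left out, as given above. The direction turned for Sry (-0.0435 with thinned cells, and -0.21 to 1.15 with 1 library left out), for Hhip (-6.31 to 0.35 with 1 library left out, and -7.23 to 3.12 in the cells left without the Sertoli-gene cells) and for Nid2 with all cell types kept (-0.18, and -0.62 in the cells left without the Sertoli-gene cells).

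Without thinning, the share of cells with a UMI in XY WT and XY -KTS KO was 22.4% and 0.0754% for Dhh, 21.6% and 64.3% for Wnt4, 36.2% and 81.7% for Rspo1, and 5.45% and 42.0% for Wfdc10. With at least 2 UMIs, 11.3% and 18.0% of cells passed the epithelial gate, and 3.11% of XY -KTS KO cells the Sertoli gate. With at least 4 UMIs, the same shares were 3.85%, 6.87% and 0.595%.

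XY WT and XY -KTS KO share the replicate numbers 1 and 2. Deviations of same-numbered libraries from their group means correlated at 0.437 between the XY groups, and between -0.433 and 0.497 over all pairs of groups (5684 genes), so the numbers were not taken as a pairing. With the replicate number as a block, 4003 genes were called in XY -KTS KO against XY WT, 1887 higher and 2116 lower, 3395 without Sertoli-gene cells and 408 for the interaction. Depth limits genes near 1 UMI per library, such as Hhip in XY -KTS KO.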
